A study of Mus musculus with 29 samples.

Results

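The genes described here are 52 cell cycle and DNA replication genes, followed in mesenchymal cells from the mouse common bile duct in 29 RNA-seq libraries of 9 groups. They were chosen by symbol: 21 act mainly in DNA replication and the supply of nucleotides (called replication genes below), 30 act mainly in mitosis and chromosome handling (mitosis genes), and 1 is the G1 cyclin Ccnd1. All 52 were found once among 55401 gene entries, and all 52 passed the filter on low counts in both fits. The filter kept 17150 entries in the Gli1 libraries and 24383 in the Pdgfra libraries. Groups of libraries come from the sample titles. Gli1-CreERT2 mice with a Rosa26 tdTomato reporter behind a lox-STOP-lox cassette gave 3 libraries from uninjured animals and 3 libraries from animals on day 4 after bile duct ligation (BDL), an operation that blocks bile flow. Pdgfra-CreERT2 mice with the same reporter gave 5 libraries of the wild type, 4 each of SmoFF and Gli2FFGli3FF, 3 each of SmoM2 and Ctnnb1FF, and 2 each of Gli2FF and Gli3FF. Wild type here means that the labels list no allele besides the driver and the reporter. By the convention of mouse genetics, FF stands for floxed copies of a gene that recombination deletes, and SmoM2 for a Smo protein that signals without ligand. CreERT2 acts only where its driver gene is active, so the alleles and the reporter are switched in cells that express Gli1 or Pdgfra at the time of induction, and in their descendants. Per the labels' protocols about 1000 sorted cells of an individual animal went into each library, so p-values reflect how far single animals and their libraries differed. The sources used here give no ages and no induction schedule, and BDL was compared with uninjured animals, with no sham operation named.

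A dividing cell copies its DNA in S phase and separates the copies in mitosis. Genes for replication are switched on from late G1, largely through E2F factors bound to their promoters. Genes for mitosis peak later, in G2 and M phase, through the MuvB complex with B-Myb and FoxM1, which acts on promoter elements called CHR (cell cycle genes homology region) and on CCAAT boxes bound by NF-Y. Quiescent fibroblasts keep most of these genes nearly silent, and ligation of the bile duct is known to make duct cells and the mesenchyme around them proliferate. Bulk libraries cannot tell fewer cells of a type from less RNA per cell, so a higher level here may be more cycling cells or more transcript in each.

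Total counts per library were between 15021796 and 38301189, of which 2.37 to 50.03% fell on a ribosomal RNA locus. The members together took 3126 to 22671 counts per library for the replication genes and 478 to 51898 for the mitosis genes. Targeted genes were lower in SmoFF and Gli3FF: Smo had 6.81 to 9.05 CPM (read counts scaled by effective library size) in SmoFF against 22.6 to 36.3 in wild type, and Gli3 had 12.3 to 14.4 in Gli3FF against 30.8 to 44.9. Gli2 overlapped with wild type in Gli2FF (12.8 and 6.91 CPM against 12.8 to 20.9), and Ctnnb1 was at 38.0 to 47.9 in Ctnnb1FF against 53.2 to 64.2. Values of such a label check for SmoM2 and Gli2FFGli3FF are not given here. One label of wild type replicate 5 names SmoFF besides wild type, and its Smo level of 28.7 CPM lay within that of the other wild type libraries. Fibroblast markers such as Col1a1 and Pdgfra summed to 19160 to 73470 CPM in every library, against at most 472 for immune and 177 for endothelial markers. Other lists reached higher sums. Cholangiocyte markers reached 1170 CPM (uninjured replicate 3), mesothelial markers 1623 (SmoFF replicate 2), and smooth muscle and pericyte markers 6348 (BDL replicate 2). Immune markers stood out in SmoFF replicate 1 (245 CPM over the 15 markers), Gli2FFGli3FF replicate 1 (472) and Gli2FFGli3FF replicate 4 (161), while every other library had between 7.66 and 102.

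The promoters of replication and mitosis genes differed in the elements they hold. RefSeq promoter windows (GRCm38.p6, 250 bases before to 50 bases after each start) were found for 43 of the 52 members, 18 replication and 25 mitosis genes. Of the 25 mitosis genes, 20 (80.0%) held a CHR (TTTGAA or TTCGAA), against 3 of 18 replication genes (16.7%) and 21.7% of 27025 genes with a window. An E2F element (TTTGGCGC, TTTCGCGC, TTTCCCGC or TTTGCCGC) was present in 9 of 18 replication genes, in 1 of 25 mitosis genes and in 2.6% of all genes. A CCAAT box (CCAAT) was found in 22 of 25 mitosis genes (88.0%), 11 of 18 replication genes (61.1%) and 41.1% of all genes. Both strands were searched, and forward and reverse E2F matches can overlap. The members had been sorted by role before, so these shares describe the lists, and a match shows letters, not binding. The 7 windows below belong to the genes that the results turn on. Ccnb2, Bub1b and Top2a are mitosis genes, Mcm5, Mcm6 and Pcna are replication genes, and Hmgb2 is a chromatin protein listed with mitosis. Each is written 5′ to 3′ on the gene's strand, with CHR, E2F and CCAAT matches on either strand in capitals.
Ccnb2, chr9:70421505-70421804, minus strand: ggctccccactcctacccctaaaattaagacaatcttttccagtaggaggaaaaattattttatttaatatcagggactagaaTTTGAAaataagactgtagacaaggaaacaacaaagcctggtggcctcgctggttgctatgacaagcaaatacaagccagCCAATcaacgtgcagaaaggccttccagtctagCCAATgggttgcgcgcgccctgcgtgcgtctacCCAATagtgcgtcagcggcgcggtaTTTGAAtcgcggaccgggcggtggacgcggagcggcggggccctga
Bub1b, chr2:118597961-118598260, plus strand: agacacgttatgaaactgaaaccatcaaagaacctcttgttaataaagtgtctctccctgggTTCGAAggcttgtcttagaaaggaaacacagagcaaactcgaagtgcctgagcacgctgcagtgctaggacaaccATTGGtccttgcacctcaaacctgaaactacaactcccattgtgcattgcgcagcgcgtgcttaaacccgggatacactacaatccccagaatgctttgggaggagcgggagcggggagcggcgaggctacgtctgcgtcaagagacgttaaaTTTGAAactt
Top2a, chr11:99024140-99024439, minus strand: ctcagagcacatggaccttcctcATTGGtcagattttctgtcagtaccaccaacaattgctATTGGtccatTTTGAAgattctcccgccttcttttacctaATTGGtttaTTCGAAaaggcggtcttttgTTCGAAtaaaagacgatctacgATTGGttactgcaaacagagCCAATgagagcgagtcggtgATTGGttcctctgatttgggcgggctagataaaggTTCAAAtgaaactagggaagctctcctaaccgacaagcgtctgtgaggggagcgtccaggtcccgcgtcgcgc
Mcm5, chr8:75109259-75109558, plus strand: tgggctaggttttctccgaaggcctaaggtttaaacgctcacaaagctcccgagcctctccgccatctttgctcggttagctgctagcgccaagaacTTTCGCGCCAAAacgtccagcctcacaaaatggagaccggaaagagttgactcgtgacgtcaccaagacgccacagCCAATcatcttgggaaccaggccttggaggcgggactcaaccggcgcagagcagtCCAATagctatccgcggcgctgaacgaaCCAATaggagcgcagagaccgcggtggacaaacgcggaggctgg
Mcm6, chr1:128359656-128359955, minus strand: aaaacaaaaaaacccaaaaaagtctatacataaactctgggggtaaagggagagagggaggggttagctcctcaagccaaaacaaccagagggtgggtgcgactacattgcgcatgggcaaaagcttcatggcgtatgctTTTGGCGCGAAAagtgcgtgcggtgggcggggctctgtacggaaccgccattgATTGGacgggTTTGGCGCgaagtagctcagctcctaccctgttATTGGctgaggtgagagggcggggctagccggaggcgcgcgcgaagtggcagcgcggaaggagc
Pcna, chr2:132253131-132253430, minus strand: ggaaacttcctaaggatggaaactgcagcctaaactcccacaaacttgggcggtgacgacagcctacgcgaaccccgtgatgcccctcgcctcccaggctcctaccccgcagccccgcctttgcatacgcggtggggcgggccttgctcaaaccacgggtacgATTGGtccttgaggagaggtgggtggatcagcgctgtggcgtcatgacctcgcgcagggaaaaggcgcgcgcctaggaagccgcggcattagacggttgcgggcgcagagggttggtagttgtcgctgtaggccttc
Hmgb2, chr8:57511593-57511892, plus strand: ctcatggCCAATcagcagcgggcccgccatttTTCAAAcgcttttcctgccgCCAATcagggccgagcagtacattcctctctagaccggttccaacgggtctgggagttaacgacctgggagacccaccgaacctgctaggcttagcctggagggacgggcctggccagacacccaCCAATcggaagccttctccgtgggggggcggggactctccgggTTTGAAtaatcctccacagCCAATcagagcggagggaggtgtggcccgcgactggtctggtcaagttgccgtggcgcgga
Ccnb2 held 3 CCAAT boxes at 87, 54 and 21 bases before the start. Top2a held 4 CHR and 6 CCAAT matches. Mcm5 and Mcm6 each held a pair of overlapping E2F matches, and Mcm6 a further one 47 bases before its start. Pcna held 1 CCAAT match, written ATTGG, and none of the CHR or E2F strings searched. Hmgb2 held 2 CHR and 4 CCAAT matches.

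In uninjured ducts and in Pdgfra wild type, the members were weakly expressed, and replication genes stood above mitosis genes. The 21 replication genes summed to 182.9, 289.6 and 145.7 CPM in the 3 uninjured Gli1 libraries, and the 30 mitosis genes to 116.7, 164.5 and 24.3. Pdgfra wild type gave 117 to 182 CPM for replication and 35.2 to 90.5 for mitosis genes. Per kilobase of exon, the highest replication gene in uninjured ducts was Pcna, the sliding clamp that holds DNA polymerase on its template, at 15.7 CPM per kb. The highest mitosis gene was Hmgb2, a DNA-bending chromatin protein, at 4.48 CPM per kb. Many mitosis genes had no count at all: 11, 4 and 25 of 30 in uninjured replicates 1, 2 and 3, and 3 to 11 of 30 in wild type.

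**Figure D1:**
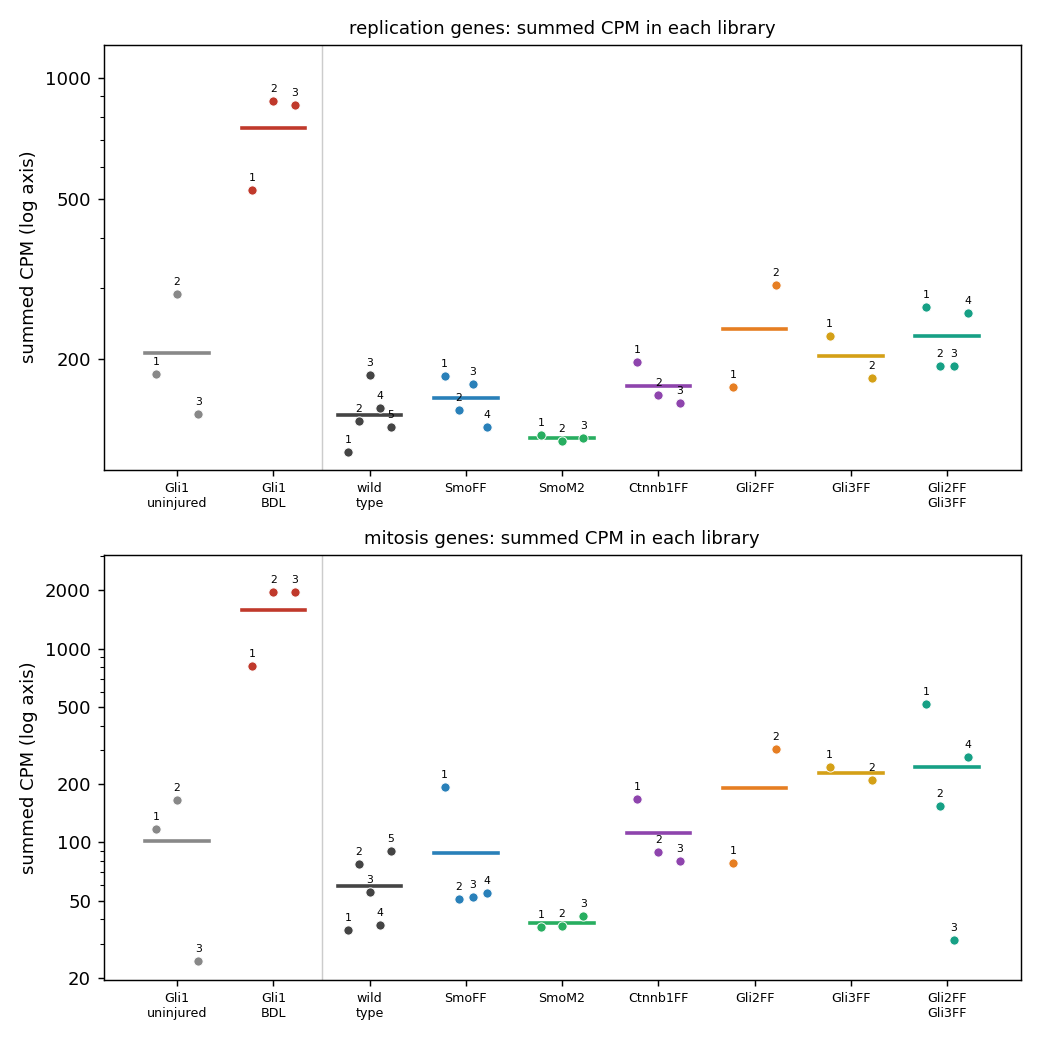
Summed CPM (log axis) of the 21 replication genes and the 30 mitosis genes in each of the 29 libraries, grouped by title; each point is 1 library with its replicate number and each line a group mean. Among the Gli1 libraries those of BDL lie highest for both, and mitosis sums range from 31.2 to 519 CPM in Gli2FFGli3FF and from 36.7 to 41.6 CPM in SmoM2. CPM values are comparable within the Gli1 and within the Pdgfra libraries.

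On day 4 after BDL every one of the 52 members had a positive log2 fold change, and 5 of 21 replication and 10 of 30 mitosis genes rose past the test. The summed level differed by a larger ratio for mitosis than for replication genes, and the difference between the lists was not tested. The mitosis genes summed to 815, 1956 and 1957 CPM (mean 1576 ± 659, SD, n = 3), against a mean of 102 ± 71.3 (n = 3) in uninjured ducts, 15.5 times as much. The replication genes summed to 525, 876 and 855 CPM (752 ± 197, SD, n = 3) against 206 ± 74.7 (n = 3), 3.65 times as much. All 3 BDL libraries lay above all 3 uninjured libraries in both sums, and mitosis genes went from 0.167 to 0.638 times the replication sum to 1.55 to 2.29 times it. With 3 libraries against 3, the quasi-likelihood test of edgeR, adjusted by Benjamini-Hochberg, called 15 of 52 members higher at adjusted p under 0.05 and none lower, where it called 7.77% of all genes tested higher and 5.80% lower. At an unadjusted p under 0.05, 35 members were higher and 0 lower, against 2452 and 2122 of 17150 genes. By DESeq2, 27 members were called, and by limma voom 10. The share of all genes called by these tools is not given here. In 46 of 52 members (17 replication and 29 mitosis genes) every BDL library lay above every uninjured library, against 22.3% of all genes. The other members, Ttk, Mcm3, Pcna, Ccnd1, Cdc6 and E2f1, overlapped.

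**Figure D2:**
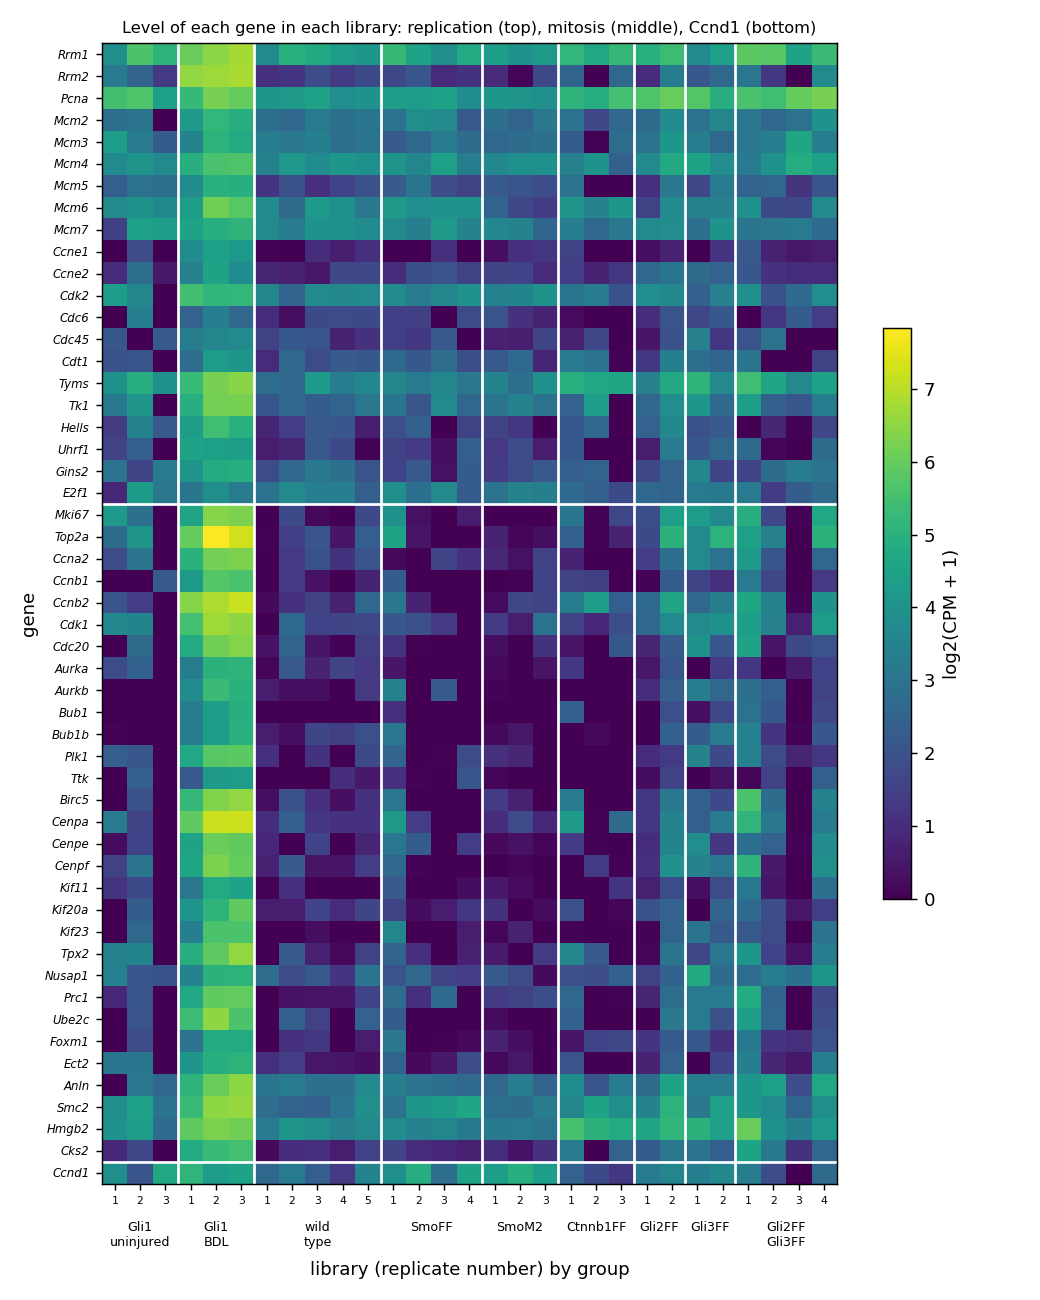
Log2 CPM of the 52 members (rows, by role) in the 29 libraries (columns, by group), on a single color scale. White lines part the groups and the roles. The 3 BDL columns are high beside the uninjured ones in nearly every row, while mitosis rows in other groups switch between 0 and low levels from library to library. Colors are comparable within the Gli1 and within the Pdgfra columns.

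The median log2 fold change of the 21 replication genes was 2.06, against 0.07 for all genes. Rrm2, the regulated subunit of ribonucleotide reductase that makes deoxynucleotides, stood at 8.57, 4.91 and 1.53 CPM in uninjured ducts and at 94.2, 102 and 115 CPM after BDL. No BDL library came near the uninjured range (log2 fold change 4.37, SE 0.61, adjusted p = 0.00903). Mcm4, a subunit of the MCM helicase that unwinds DNA at the fork, rose from 12.3, 15.8 and 12.1 to 29.3, 47.4 and 50.3 CPM (log2 1.66, SE 0.30, adjusted p = 0.0205). Its partner Mcm5 rose from 4.09, 6.80 and 6.31 to 12.6, 31.2 and 29.3 CPM (log2 2.09, SE 0.48, adjusted p = 0.0343). The third called helicase subunit, Mcm6, rose from 11.8, 14.8 and 11.5 to 20.0, 69.0 and 54.8 CPM (log2 1.92, SE 0.47, adjusted p = 0.0421). In all 3 subunits BDL replicate 1 was the lowest of the BDL libraries and still above every uninjured one. Tyms, thymidylate synthase, which makes dTMP, rose from 15.4, 28.5 and 14.5 to 38.1, 74.0 and 84.9 CPM (adjusted p = 0.0370). Pcna did not pass: it had 42.8, 49.8 and 20.4 CPM before and 37.2, 73.5 and 61.9 after (log2 0.61, SE 0.40, adjusted p = 0.418). BDL replicate 1 lay below 2 of the uninjured libraries for Pcna.

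The median log2 fold change of the 30 mitosis genes was 4.32. Ccnb2, a B-type cyclin that activates Cdk1, stood at 3.10, 1.67 and 0 CPM in uninjured ducts and at 83.5, 116 and 143 CPM after BDL. The groups lay far apart (log2 6.16, SE 1.10, adjusted p = 0.0194). Bub1b, a spindle checkpoint kinase-like protein, had 1 count in all uninjured libraries together and 9.04, 20.0 and 30.2 CPM after BDL (adjusted p = 0.00517). Its pooled ratio was 1310, with a 95% counting interval of 235 to 51800. Aurkb, the kinase of the chromosomal passenger complex, had no count in uninjured ducts and 12.7, 39.9 and 31.3 CPM after BDL, at least 609-fold higher against a floor of 3 counts over the group (adjusted p = 0.00759). The checkpoint kinase Bub1 was likewise at 0 before and at 8.99, 20.2 and 28.8 CPM after, at least 426-fold higher (adjusted p = 0.00903). Both genes were thus detected in every BDL library and in no uninjured one. Over all genes, fewer were detected in uninjured libraries (17121 to 20753) than in BDL libraries (23482 to 24964), and the part of this in the zeros was not tested.

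Hmgb2 rose from 15.2, 19.4 and 5.70 to 58.6, 77.0 and 69.8 CPM (log2 2.35, SE 0.46, adjusted p = 0.0231). Smc2, a condensin subunit that compacts chromosomes, rose from 13.6, 21.6 and 6.92 to 38.5, 90.4 and 94.9 CPM (log2 2.41, adjusted p = 0.0302). The other called mitosis genes were the kinetochore motor Cenpe (adjusted p = 0.0320), the Cdk-binding protein Cks2 (0.0389), the spindle midzone protein Prc1 (0.0431) and Birc5, survivin (0.0470). Cks2 went from 0.887, 2.24 and 0 to 27.2, 37.9 and 44.1 CPM. Birc5 went from 0, 2.81 and 0 to 36.2, 80.2 and 92.8 CPM. In both, the lowest BDL library lay more than 10 times above the highest uninjured one.

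Several of the best known proliferation genes had large differences that did not pass the test. Top2a, the topoisomerase that untangles sister chromatids, had 5.76, 15.7 and 0 CPM before and 62.5, 227 and 152 after (log2 4.36, SE 1.38, adjusted p = 0.0941). Mki67, which codes for the Ki-67 antigen, had 18.0, 6.40 and 0 CPM before and 22.6, 83.4 and 77.9 after (SE 1.42, adjusted p = 0.257). For Cdk1, the kinase that drives entry into mitosis, the values were 11.5, 10.7 and 0 CPM and 43.9, 105 and 92.5 (adjusted p = 0.151). Uninjured libraries disagreed among themselves in all 3 genes, with replicate 3 at 0. Ccnb1, the other B-type cyclin, had 0, 0 and 3.66 CPM before and 18.2, 53.5 and 46.9 after (adjusted p = 0.127). Here the only uninjured library with counts was replicate 3. Ccnd1, the cyclin that couples growth signals to Cdk4 and Cdk6 in G1, had 14.0, 3.07 and 24.2 CPM before and 34.0, 19.1 and 22.1 after (log2 0.86, SE 0.70, adjusted p = 0.524). Its groups overlapped.

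**Figure D3:**
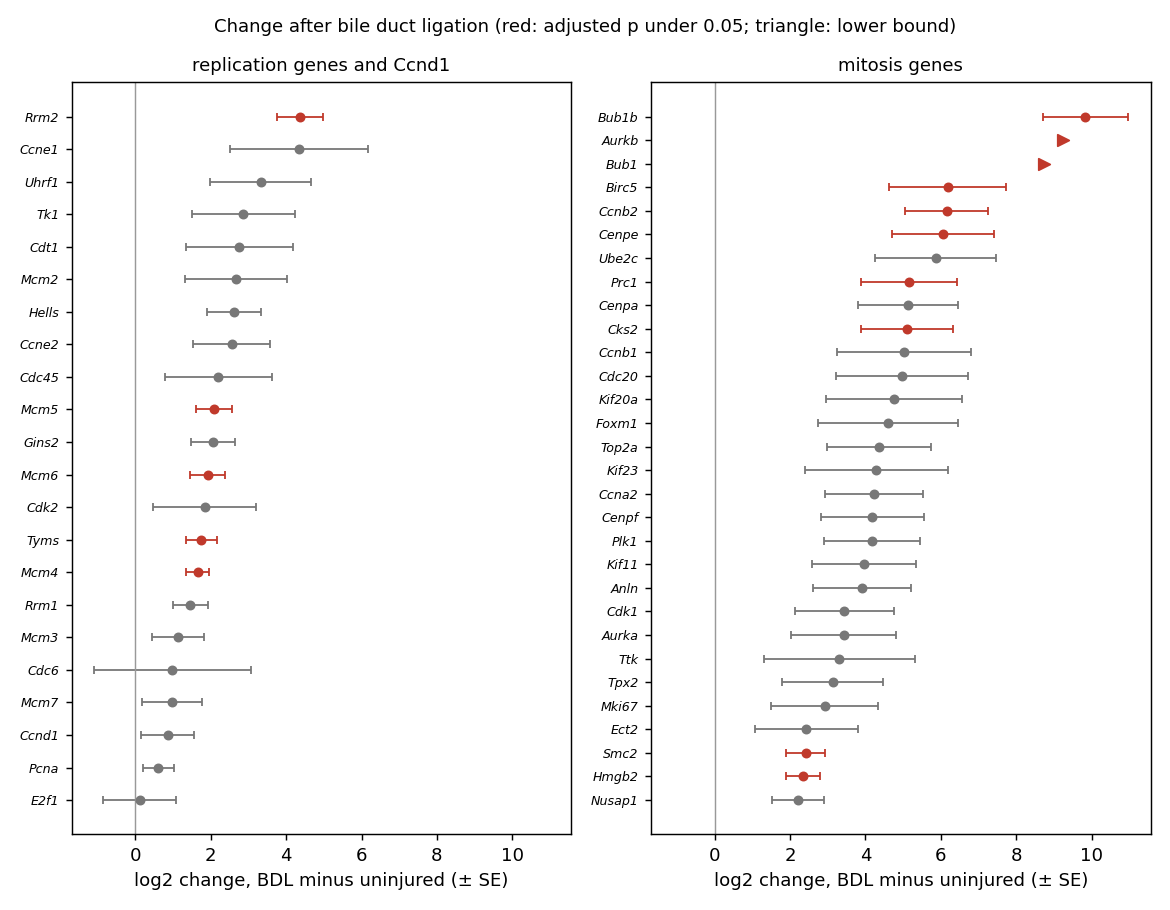
Log2 fold change (BDL minus uninjured) with its standard error for each of the 52 members, sorted within role, called members in red; triangles give lower bounds of members with no count in uninjured ducts. All 52 points lie above 0, replication genes around a median of 2.06 and mitosis genes around 4.32.

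The number of calls depended on single libraries. Without uninjured replicate 3, which had 25 of 30 mitosis genes at 0 and cholangiocyte markers at 1170 CPM against 138 and 95.2 in the other uninjured libraries, 25 members were called. Top2a (adjusted p = 0.0297), Ccnb1 (0.00763) and Cdk1 (0.0165) were then among them. Without BDL replicate 1, 2 or 3 the test called 9, 2 or 1 members. How many of all genes were called in these runs is not given here, so the counts are not read as shares. BDL replicate 1 had the lowest mitosis sum of the BDL libraries and the highest Cdkn1a (177 CPM), Cdkn1b (128) and Cdkn1c (167), which code for CDK inhibitors, against 45.0 to 49.8, 38.6 to 48.3 and 44.6 to 80.9 in the other 2. None of the inhibitors differed past the test between BDL and uninjured ducts (adjusted p = 0.895, 0.305 and 0.253 for Cdkn1a, Cdkn1b and Cdkn1c).

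Markers of other cells moved with the same contrast. Smooth muscle and pericyte markers summed to 290.0 to 379 CPM before and 5417 to 6348 after, and 7 of 14 were called higher. Mesothelial markers fell from 429 to 1241 CPM to 73.4 to 110 (10 of 12 called lower). Endothelial markers went from 139 to 177 CPM to 20.8 to 49.9 in sum. Of the 9 endothelial markers tested, 1 was called higher and 1 lower, with a median log2 fold change of -0.008. Fibroblast markers went from 34540 to 40930 CPM to 70100 to 73470, with 5 of 10 called higher and 2 lower. Immune markers went from 12.6 to 28.1 CPM to 37.6 to 102, with 1 of the 10 tested called higher. The part of these cells in the rise of the members was not tested.

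Further genes of the same processes were counted against the 7.77% of all genes called higher and the 5.80% called lower after BDL. Of 58 further mitosis genes, 24 were called higher and 0 lower, with a median log2 fold change of 3.83. Among those with the smallest p were Ckap2l and Psrc1 (spindle proteins) and Cenpw and Nuf2 (kinetochore). Of 48 further replication genes, 4 were called higher and 0 lower, with a median of 0.86: Exo1, Mcm10, Dnmt1 and Cdca7. That count lies close to the share over all genes. Of 35 cell cycle control genes, 5 were higher and 4 lower. Cdk6, a G1 kinase, rose from 21.3, 11.4 and 16.3 to 74.7, 61.2 and 90.0 CPM (adjusted p = 0.00857), and its relative Cdk4 from 127, 138.5 and 160 to 203, 275 and 300.2 CPM (adjusted p = 0.0344). The late E2F genes E2f7 (adjusted p = 0.0287) and E2f8 (0.0193) rose as well, as did E2f2. Btg2, an antiproliferative gene, fell from 264, 202 and 177 to 46.6, 45.5 and 25.2 CPM (adjusted p = 0.0063), and Rbl2, the pocket protein p130 of quiescent cells, fell by 1.75 on the log2 scale (adjusted p = 0.0192). Ccng2 and Tob1 were the other genes called lower.

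Among the 7 Pdgfra genotypes, Pcna and a few other members differed. A test of any difference among the genotypes called 7 of 52 members, against 32.8% of all genes. At an unadjusted p under 0.05, 15 members passed, against 11601 of 24383 genes. Both counts lay under the share over all genes. The count of called members depended on the tool and the filter: DESeq2 called 14 members (and 10087 of 24383 genes), limma voom 19 (and 13297 of 24383), and edgeR with no filter on low counts 28 (and 12599 of 39351). It was 15 without SmoFF replicate 1, 11 without Gli2FFGli3FF replicate 3, and 3 or 4 without SmoM2 replicate 1 or 2, Gli3FF replicate 1 or Gli2FFGli3FF replicate 2. For these runs with a library left out, the share over all genes is not given here. The 7 were Pcna (adjusted p = 3.6e-06), Hmgb2 (0.00323), Tyms (0.0235), Rrm1 (0.0265), Aurkb (0.0337), Ccnd1 (0.0459) and Cks2 (0.0468). All comparisons with wild type below share the same 5 wild type libraries.

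Pcna was the member that separated the genotypes most clearly. It stood at 16.8, 18.0, 21.3, 13.4 and 15.1 CPM in wild type, at 20.1, 18.9, 21.6 and 13.1 in SmoFF and at 16.2, 15.5 and 13.9 in SmoM2. It stood at 32.9, 28.0 and 43.6 CPM in Ctnnb1FF, at 50.3 and 64.2 in Gli2FF, at 52.7 and 28.95 in Gli3FF and at 46.8, 42.1, 61.5 and 73.7 in Gli2FFGli3FF. Every library of the latter 4 genotypes lay above every library of wild type, SmoFF and SmoM2. Against wild type the log2 fold change was 1.04 (SE 0.24, adjusted p = 0.00415) in Ctnnb1FF and 1.76 (SE 0.27, adjusted p = 0.000366) in Gli2FF. It was 1.27 (SE 0.27, adjusted p = 0.00632) in Gli3FF and 1.73 (SE 0.23, adjusted p = 1.8e-05) in Gli2FFGli3FF. The call for Gli3FF rested on replicate 1, without which the adjusted p was 0.416. In the other 3 genotypes Pcna was called under every alternative run, 19 to 22 per comparison. A processed pseudogene, Pcna-ps2, stood at 2.61 to 5.69 CPM in wild type and at most 9.14 elsewhere in the Pdgfra libraries, and its counts added to Pcna left these calls in place. The ribosomal RNA share was 13.4 to 29.4% in wild type, 10.2 to 29.6% in SmoFF and 12.0 to 22.6% in SmoM2. It was 28.0 to 34.4% in Ctnnb1FF, 13.5 and 8.56% in Gli2FF, 39.1 and 24.5% in Gli3FF and 38.4 to 50.03% in Gli2FFGli3FF. Its part in the Pcna level was not tested.

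**Figure D4:**
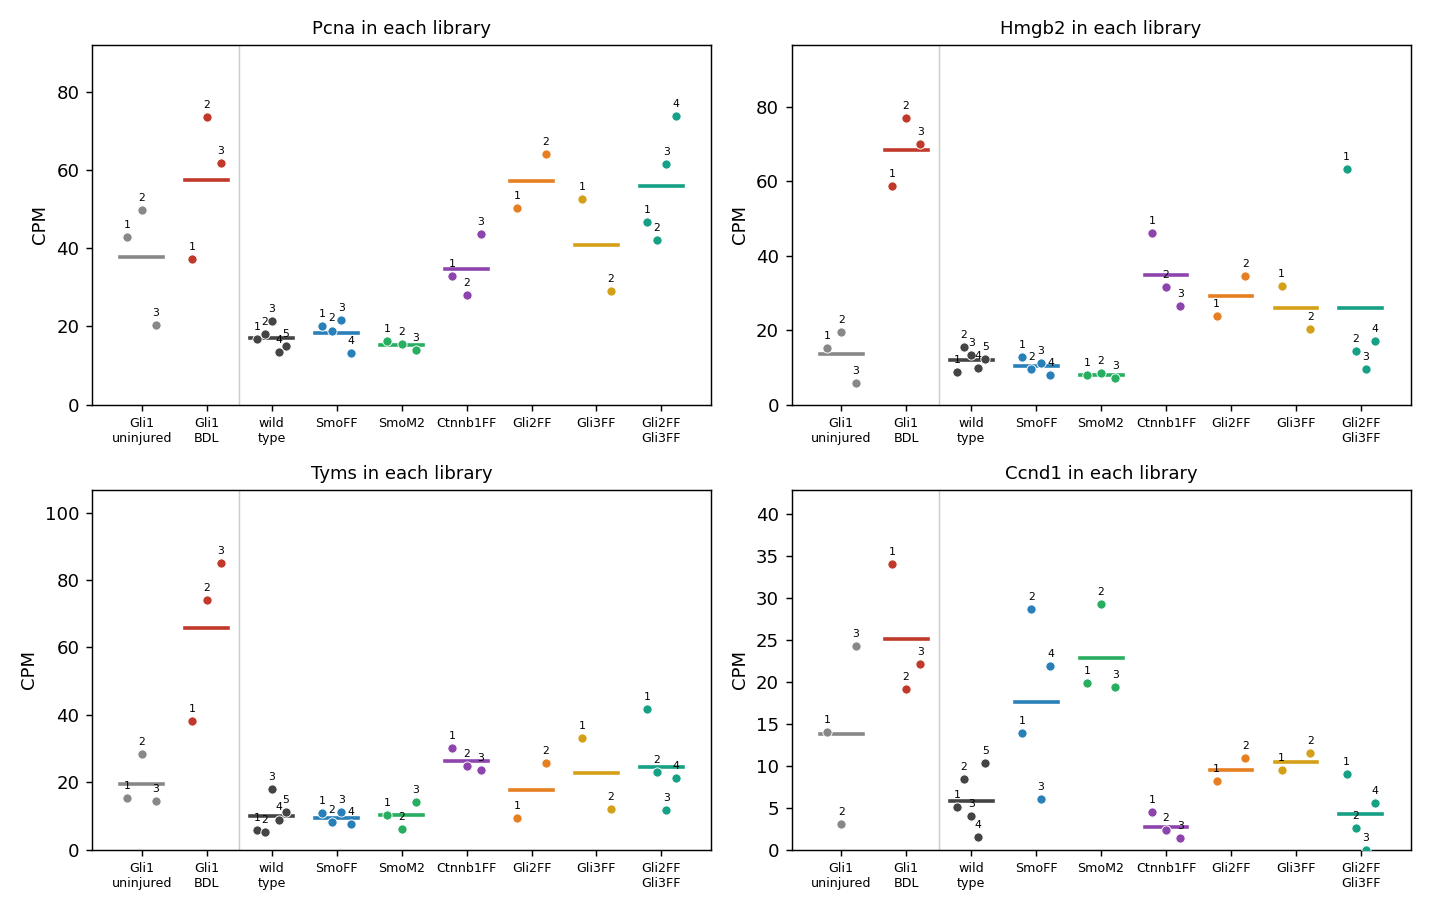
CPM of Pcna, Hmgb2, Tyms and Ccnd1 in each library of the 9 groups, with the group mean as a line; each point is 1 library with its replicate number. Pcna is above the wild type range in all libraries of Ctnnb1FF, Gli2FF, Gli3FF and Gli2FFGli3FF, while Ccnd1 is highest in SmoFF and SmoM2 among the Pdgfra genotypes.

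Pcna and the mitosis genes came apart within Gli2FFGli3FF. In replicate 3 the 30 mitosis genes summed to 31.2 CPM with 13 of them at 0, the lowest sum of the 23 Pdgfra libraries, while Pcna stood at 61.5 CPM, the third highest. Mitosis sums in the other Gli2FFGli3FF libraries were 519, 153 and 277 CPM. Wild type lay between 35.2 and 90.5 CPM, so the genotype overlapped with wild type through replicate 3. Replication sums were 269, 191, 192 and 260.0 CPM, above every wild type library (117 to 182). Much of that difference lay in 3 genes: mean levels were 56.0 CPM against 16.9 in wild type for Pcna, 43.3 against 21.0 for Rrm1 and 24.6 against 9.88 for Tyms. The mean log2 CPM of the 21 replication genes, in which each gene weighs the same, was 1.97 ± 0.67 (SD, n = 4) against 2.04 ± 0.36 (n = 5), a difference of -0.07, and of -0.77 with total counts in place of TMM scaling.

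In Gli2FFGli3FF 7 members were called higher and 0 lower, against 7.60% and 9.56% of all genes. Of these only Pcna was called under all 22 alternatives, and the other 6 lost the call in 9 to 12 of the 21 or 22 run. Pcna was the one member called with a replicate block, or without wild type replicate 1, wild type replicate 4 or Gli2FFGli3FF replicate 1. Without wild type replicate 2, 3 or 5 the count was 4, 4 or 2. How many of all genes were called in these runs is not given here. At an unadjusted p under 0.05, 12 were higher and 1 lower, against 3042 and 5447 of 24383 genes. Pcna alone had every Gli2FFGli3FF library above every wild type library (8.75% of all genes did), and Mcm7 alone had every one below (10.7%). The median log2 fold change was 0.36 for replication genes and 2.52 for mitosis genes, against -0.35 for all genes. That of all genes was -0.115 in a fit of only the groups compared and -0.009 with the trend over exon length removed. The medians of the members under these settings are not given. After Pcna came Rrm1, the large subunit of ribonucleotide reductase, with 57.0, 54.8, 22.1 and 39.5 CPM against 12.5, 30.2, 25.9, 19.8 and 16.5 in wild type (log2 1.05, SE 0.31, adjusted p = 0.0220). Tyms had 41.7, 23.2, 11.9 and 21.4 CPM against 5.94, 5.26, 18.0, 8.97 and 11.2 (log2 1.31, SE 0.41, adjusted p = 0.0299). In both genes only replicate 3 lay within the wild type range. Cks2 had 22.2, 7.97, 1.23 and 5.08 CPM against 0.148 to 1.99 (log2 3.26, SE 1.00, adjusted p = 0.0274), again with replicate 3 within that range. Bub1 had 6.55, 3.44, 0 and 2.17 CPM where wild type had no count, at least 141-fold higher over the group (adjusted p = 0.0308). Kif23, a kinesin of cytokinesis, had 3.51, 2.57, 0 and 6.97 CPM against 5 counts in wild type, all in replicate 3 (adjusted p = 0.0391). Hmgb2 passed narrowly (log2 1.13, SE 0.39, adjusted p = 0.0481), with 63.1 CPM in replicate 1 and 14.4, 9.46 and 17.1 in the others, against 8.65 to 15.5. Without replicate 1 its adjusted p was 0.532.

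The uncalled core members showed the same scatter. In Gli2FFGli3FF, Mki67 had 29.7, 2.23, 0.0614 and 24.5 CPM (adjusted p = 0.108), Top2a 21.1, 9.75, 0 and 31.9 (0.156), and Cdk1 19.4, 9.67, 0.614 and 18.6 (0.116). Replicates 1 and 4 were high and replicate 3 near 0 in each. Ccnb1 (adjusted p = 0.359), Mcm5 (0.611), Rrm2 (0.341) and Ccnd1 (0.693) overlapped with wild type. Replicates 1 and 4 were also the libraries with immune markers at 472 and 161 CPM, and replicate 1 held the highest level of 20 of the 30 mitosis genes among the Pdgfra libraries. Without these 2 libraries and SmoFF replicate 1, a setting chosen after seeing the data, 3 members were called in Gli2FFGli3FF: Pcna higher, and Cdt1 and Mcm6 lower. Of 13 immune markers tested in Gli2FFGli3FF against wild type, 0 were called. Smooth muscle and pericyte markers had 5 of 14 called higher, and pancreatic acinar markers 1 of 12. Fibroblast markers had 4 of 10 called lower, and endothelial markers 1 of 10. The part of immune or other cells in the levels of the members was not tested.

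**Figure D5:**
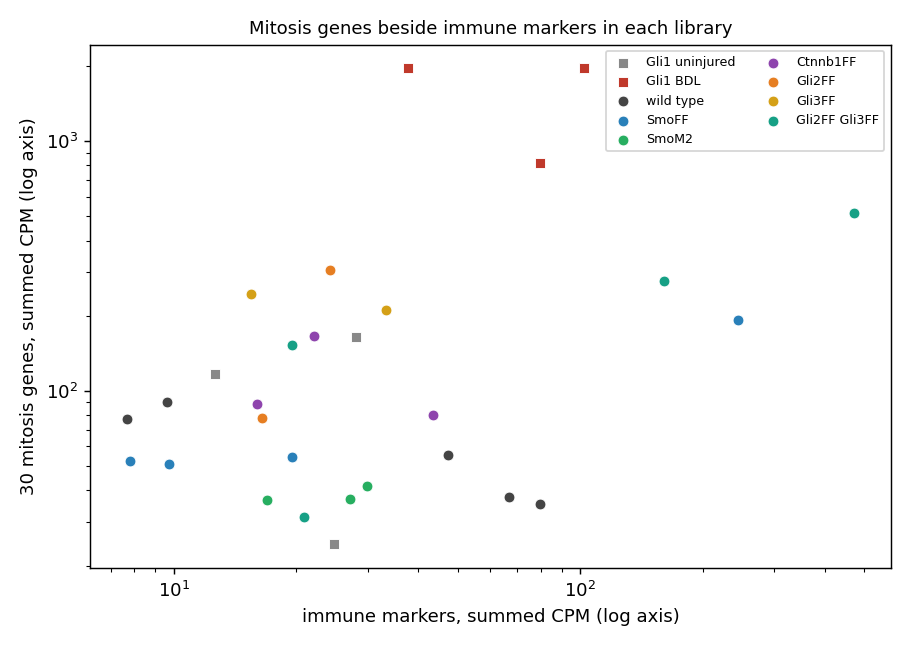
Summed CPM of the 30 mitosis genes against summed CPM of the 15 immune markers (log axes) in the 29 libraries, colored by group (squares for Gli1, circles for Pdgfra). SmoFF replicate 1 and Gli2FFGli3FF replicates 1 and 4 have immune sums above 150 CPM, while both Gli3FF libraries and Gli2FF replicate 2 reach mitosis sums above 200 CPM with immune sums of at most 33.2 CPM.

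Against SmoFF, Gli2FFGli3FF had 3 members called higher and 0 lower, against 7.68% and 8.83% of all genes. Unadjusted p fell under 0.05 for 9 higher and 2 lower members, against 3231 and 5316 of 24383 genes. Every Gli2FFGli3FF library lay above every SmoFF library for Pcna, Tyms and Nusap1 (3 of 52, against 9.56% of all genes) and below for Mcm7 (10.6%). The called members were Pcna (log2 1.60, SE 0.25, adjusted p = 8.91e-05), Hmgb2 (1.32, adjusted p = 0.0327) and Tyms (1.37, adjusted p = 0.0346). Pcna was called under all 19 alternatives, while Hmgb2 lost the call in 8 and Tyms in 7. Without Gli2FFGli3FF replicate 1, where Hmgb2 stood at 63.1 CPM, its log2 fold change was 0.47 (adjusted p = 0.288), and that of Tyms 1.07 (adjusted p = 0.114). The count was 10 without SmoFF replicate 1, 1 without SmoFF replicate 2, 3 or 4, and 6 without Gli2FFGli3FF replicate 3. How many of all genes were called in these runs is not given here. Of the core members, Ccnd1 fell short of the test at a log2 difference of -2.04 (SE 0.78, adjusted p = 0.0728), and the others apart from Pcna had adjusted p of 0.109 (Cdk1) to 0.975 (Mcm5). The median was 0.37 for replication genes and 1.52 for mitosis genes, against -0.27 for all genes. That of all genes was -0.114 in a fit of only the groups compared and 0 with the trend over exon length removed.

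In Ctnnb1FF 4 of 52 members were called higher, Pcna, Hmgb2, Tyms and Bub1, and 1 lower, Cdc6. Over all genes 8.04% were higher and 11.9% lower, so the count of higher members lay near the background. For Pcna, Tyms and Hmgb2 (3 of 52) every Ctnnb1FF library lay above every wild type library, against 9.99% of all genes, and for Mcm3, Cdc6 and Bub1b every one lay below, against 15.2%. In the main fit the medians of replication genes (0.03) and mitosis genes (-0.06) stood above that of all genes, which was -0.61. The median of all genes depended on the setting. It was -0.251 in a fit of only the groups compared and -0.066 with the trend over exon length removed. The medians of the members under these settings are not given. Hmgb2 had 46.0, 31.6 and 26.4 CPM against 8.65, 15.5, 13.3, 9.73 and 12.3 in wild type (log2 1.54, SE 0.41, adjusted p = 0.0111). Tyms had 30.3, 24.7 and 23.8 CPM against 5.26 to 18.0 (log2 1.41, SE 0.43, adjusted p = 0.0257). Like Pcna, both genes were high in all 3 libraries. Bub1 was called (adjusted p = 0.0449) from 4.15 CPM in replicate 1 alone, with 0 in the other 2 and in wild type. Cdc6, which loads the MCM helicase at origins, had 3 counts over the group against 250 in wild type, a ratio of 0.0266 with a 95% counting interval of 0.00545 to 0.0786 (adjusted p = 0.0482). That interval leaves out differences between animals. Cdc6 lost the call in 12 of 20 alternatives, Bub1 in 10 of 19, Tyms in 7 of 20 and Hmgb2 in 2 of 20. The remaining core members had adjusted p of 0.324 (Ccnd1) to 0.977 (Top2a). Fewer genes were detected in these libraries (15892 to 17726) than in wild type (21127 to 24483).

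Gli2FF and Gli3FF each had 1 member called higher, Pcna, and 0 lower. At adjusted p under 0.05 the background was 2.58% higher and 3.26% lower in Gli2FF, and 2.09% and 2.36% in Gli3FF. At an unadjusted p under 0.05, 8 members were higher in Gli2FF and 13 in Gli3FF, with 0 lower in either. Over all 24383 genes tested, 2474 were higher and 2408 lower at that threshold in Gli2FF, and 1871 and 2654 in Gli3FF. With RLE in place of TMM scaling, the share of higher genes among all genes called in Gli2FF went from 44.1 to 55.5%, and the call of Pcna held. Mitosis genes nevertheless lay high in both Gli3FF libraries, with sums of 244 and 211 CPM against 35.2 to 90.5 in wild type. Markers of other cells moved with this contrast. Endothelial markers summed to 11.8 and 15.1 CPM in Gli3FF against 74.9 to 98.7 in wild type (2 of 10 tested called lower), cholangiocyte markers to 23.3 and 11.5 against 57.4 to 99.2 (2 of 16 lower), and mesothelial markers to 143 and 84.3 against 214 to 533.5 (5 of 12 lower). Smooth muscle and pericyte markers summed to 645 and 716 CPM against 267 to 404 (2 of 14 higher), and fibroblast markers to 49320 and 42470 against 27330 to 37850 (3 of 10 higher, 1 lower). Immune markers were at 15.5 and 33.2 CPM, within the wild type range of 7.66 to 79.6. The part of these cells in the mitosis levels was not tested. In 13 of 30 mitosis genes and 3 of 21 replication genes both Gli3FF libraries were above all wild type libraries, against 10.8% of all genes. In Gli3FF, Mki67 had 18.7 and 12.4 CPM against at most 2.35 in wild type (adjusted p = 0.241), and Top2a had 12.1 and 32.4 against at most 4.02 (0.266). Cdk1 had 12.5 and 14.3 against at most 5.35 (adjusted p = 0.262). None of these passed with 2 libraries, and limma voom called 4 members and DESeq2 3. Gli2FF was split: replicate 1 had a mitosis sum of 78.0 CPM and replicate 2 of 305, with Mki67 at 2.70 and 20.4 and Top2a at 2.37 and 31.9 CPM. In Gli2FF both libraries were above all wild type libraries in 5 of 30 mitosis genes and 4 of 21 replication genes, against 21.0% of all genes. Limma voom called 7 members in Gli2FF and DESeq2 5. How many of all genes these tools called in Gli2FF and Gli3FF is not given here. Of the core members other than Pcna, adjusted p lay between 0.281 (Mki67) and 0.725 (Ccnd1) in Gli2FF, and between 0.241 (Mki67) and 0.740 (Ccnb1) in Gli3FF.

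In SmoFF the summed levels of replication and of mitosis genes lay within the wild type range in 3 of 4 libraries. Single members could differ: the mean was 17.6 CPM against 5.86 in wild type for Ccnd1, and 16.05 against 7.05 for Smc2. By edgeR 0 of 52 members were called in SmoFF, against 0.287% of all genes higher and 1.26% lower. Unadjusted, 4 were higher at p under 0.05, where 1377 of 24383 genes were higher and 2262 lower. DESeq2 called 1 member and limma voom 0, and the share of all genes called by these tools is not given here. No member had all SmoFF libraries above all wild type libraries (2.03% of all genes did) or all below (2.76%). SmoFF replicate 1 stood apart with a mitosis sum of 193 CPM, against 50.9, 52.5 and 54.5 in the others, and with immune markers at 245 CPM. In that library Mki67 was at 14.6 CPM and Top2a at 22.2, where the other SmoFF libraries had at most 0.544 and 0.355. Adjusted p of the core members lay between 0.292 (Ccnd1) and 0.999 (Rrm2). Replication sums of 135 to 181 CPM overlapped with wild type.

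The mitosis genes were lowest on average and most even in SmoM2. The SmoM2 sums were 36.7, 37.1 and 41.6 CPM, within the wild type range and below every SmoFF library. Their replication sums were 125 to 129 CPM. By edgeR 0 members were called against wild type, where 0.127% of all genes were higher and 0.0779% lower. Unadjusted, 1 member was higher and 3 lower at p under 0.05, against 946 and 918 of 24383 genes. DESeq2 called 0 members and limma voom 2. Ccnd1 had all SmoM2 libraries above wild type (4.19% of all genes did), and Mcm6, Cenpf and Hmgb2 had all of them below (4.22%). Mki67 had no count in any SmoM2 library, at least 26.9-fold lower than wild type over the group, yet 2 wild type libraries were also at 0 (adjusted p = 0.578). Mcm6 had 4.69, 2.27 and 1.61 CPM against 12.8, 5.48, 16.9, 14.3 and 7.67 in wild type. The groups did not overlap, yet Mcm6 did not pass the test (log2 -2.00, SE 0.64, adjusted p = 0.323). Against SmoFF the members gave 0 calls too, where 1.74% of all genes were higher and 0.890% lower. Unadjusted, 6 were lower at p under 0.05, where 1463 of 24383 genes were lower and 2269 higher. DESeq2 called 4 members and limma voom 1. For these tools the share of all genes called, against wild type or SmoFF, is not given here. Mcm6 was the one member with all SmoM2 libraries below all SmoFF libraries (5.55% of all genes were), and it came closest (13.4 to 18.1 CPM in SmoFF, log2 -2.41, SE 0.67, adjusted p = 0.0549).

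Ccnd1 followed another order than the replication and mitosis genes. Wild type had 5.08, 8.39, 4.06, 1.48 and 10.3 CPM, SmoFF 13.9, 28.6, 6.10 and 21.8, and SmoM2 19.9, 29.2 and 19.3. Ctnnb1FF had 4.48, 2.39 and 1.40 CPM, and Gli2FFGli3FF 8.98, 2.61, 0 and 5.60. Gli2FF (8.16 and 10.9) and Gli3FF (9.46 and 11.5) lay at the upper end of wild type. Every SmoM2 library was above every wild type library, but no single comparison with wild type passed (adjusted p = 0.514 for SmoM2 and 0.292 for SmoFF).

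Outside the members, 3 further cell cycle genes rose in both Ctnnb1FF and Gli2FFGli3FF. Cks1b, which brings the inhibitor p27 to its ubiquitin ligase, had 24.5, 30.2, 26.8, 26.8 and 19.5 CPM in wild type, 89.6, 127 and 65.5 in Ctnnb1FF and 93.5, 57.7, 78.0 and 77.9 in Gli2FFGli3FF (adjusted p = 2.15e-05 and 8.69e-05). Pttg1, securin, had 0.566 to 5.09 CPM in wild type, 108, 93.4 and 55.4 in Ctnnb1FF and 60.6, 39.8, 79.7 and 49.1 in Gli2FFGli3FF (adjusted p = 0.00215 and 0.00437). Rpa3, a subunit of the single-strand binding complex, had 9.05 to 16.9 CPM in wild type, 22.97, 64.6 and 38.9 in Ctnnb1FF and 43.1, 39.9, 52.8 and 47.6 in Gli2FFGli3FF (adjusted p = 0.000399 and 0.000137). Gli2FFGli3FF replicate 3, with 13 mitosis genes at 0, was high in all 3. None of the 3 passed in Gli2FF or Gli3FF, with adjusted p of 0.17 and 0.206 for Cks1b, 0.0851 and 0.408 for Pttg1 and 0.731 and 0.616 for Rpa3. Of the further lists, 4 of 48 replication and 3 of 58 mitosis genes were called higher in Ctnnb1FF (3 and 1 lower), and 4 and 7 in Gli2FFGli3FF (1 and 0 lower). Over all genes 8.04% were called higher in Ctnnb1FF and 7.60% in Gli2FFGli3FF, so the counts of replication genes in both genotypes, and of mitosis genes in Ctnnb1FF, lay near or under the background. Cdkn1c, the CDK inhibitor p57, fell in Gli2FF by 1.80, in Gli3FF by 1.98 and in Gli2FFGli3FF by 1.43 on the log2 scale (adjusted p = 0.0233, 0.0145 and 0.00655). Its values were 30.8 and 9.89 CPM in Gli2FF, 19.9 and 15.8 in Gli3FF and 28.8, 14.5, 33.8 and 27.5 in Gli2FFGli3FF, all below the wild type range of 47.4 to 104. Cdkn1b, the inhibitor p27, fell in Gli2FFGli3FF by 0.91 (adjusted p = 0.00534).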

How the data were processed

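The authors deposited tables of raw counts, in whole reads for each gene, 1 for the Gli1 libraries and 1 per Pdgfra genotype. Per the submitters' processing notes reads were placed on mm10. The libraries were full-length cDNA without counted molecular identifiers, per the labels' protocols. The sources used here name no aligner, counter, annotation or strand setting. Reads copied by PCR count separately, so counting intervals and floors cover counting error only, and reads of Pcna and Tyms could be split with their pseudogenes. Columns were matched to samples by title. No pair of libraries held identical counts, and each pair within a group differed by more than sampling noise.

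Tests used R 4.3.3 and the quasi-likelihood functions of edgeR 4.0.16 (glmQLFit, glmQLFTest, after filterByExpr and TMM), the 6 Gli1 and the 23 Pdgfra libraries each in 1 fit, with Benjamini-Hochberg adjustment over all genes tested and a threshold of 0.05. Log2 fold changes and standard errors come from the fit, and CPM values use TMM library sizes, so they are comparable within the Gli1 and within the Pdgfra libraries. A gene at 0 in a whole group was set at a floor of 3 counts over the group. Alternatives used DESeq2 1.42.0, limma 3.58.1 voom, other scalings and filters, other sets of libraries and a replicate block. The test was tried on simulated data. Exon lengths are from GENCODE M21 (GRCm38).

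The members and lists were chosen with earlier results of these data known. Named are members, with values by library for up to 8 called replication and 8 called mitosis genes per comparison and for the core members Mki67, Top2a, Cdk1, Ccnb1, Pcna, Mcm5, Rrm2 and Ccnd1. Also named are the targeted genes, the CDK inhibitors, and called genes with the smallest p from the further lists (up to 6 per comparison). A further gene that this rule names is not reported here. Members of small counts from the further lists and single libraries were named after their values were seen.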

Additional observations from a re-analysis of the deposited data

Results flagged for a closer look

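A check for a library far from the others of its group, on 53 values, marked 8 of them. For values spread normally chance marks about 1 in 20 groups, and levels with many zeros are not spread so. A gene at 0 in every other library of its group is marked whatever its level, as were Ccnb1, Bub1 and wild type Kif23. Marks on genes of the same library are not independent, so the 8 are not set against that rate. In SmoFF replicate 1 this concerned Mki67 (14.6 CPM, others 0 to 0.544), Top2a (22.2, others 0 to 0.355), Ccnb1 (3.98, others 0), Bub1 (1.10, others 0) and Kif23 (11.2, others 0 to 0.506). The mitosis sum of the same library was 193 CPM, where the others had 50.9 to 54.4. Hmgb2 in Gli2FFGli3FF replicate 1 stood at 63.1 CPM, against 9.46 to 17.1 in the other 3 libraries. Kif23 in wild type replicate 3 was at 0.214 CPM, with no count in the other wild type libraries.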

How the results depend on the processing

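Calls of members moved with the tool, the filter and single libraries, while the log2 fold changes of the members named as called kept their sign, apart from Bub1 in Ctnnb1FF, which was 0 without replicate 1. The settings also changed the number of calls over all genes, as given above for any difference among genotypes. For the other comparisons the share over all genes under each setting is not given. A larger count of members is therefore not read as a larger share. With no filter on low counts the calls were 4 in SmoFF, 6 in SmoM2, 11 in Ctnnb1FF, 10 in Gli2FF, 10 in Gli3FF and 18 in Gli2FFGli3FF against wild type. They were 6 for SmoM2 against SmoFF, 13 for Gli2FFGli3FF against SmoFF, and 28 for any difference among genotypes. DESeq2 called 27 after BDL, 1 in SmoFF, 5 in Gli2FF, 3 in Gli3FF, 4 for SmoM2 against SmoFF, 7 for Gli2FFGli3FF against SmoFF and 14 for any difference. Limma voom called 2 in SmoM2, 7 in Gli2FF, 4 in Gli3FF, 1 for SmoM2 against SmoFF and 19 for any difference. A fit of only the groups compared called 3 in Ctnnb1FF, 2 in Gli2FF, 3 in Gli3FF and 1 for SmoM2 against SmoFF. Wild type replicates 1 to 3 as the only controls gave 1 call in Ctnnb1FF, 3 in Gli2FF, 2 in Gli3FF, 1 in Gli2FFGli3FF and 4 for any difference, and replicates 4 and 5 gave 1 in Ctnnb1FF, 1 in Gli2FFGli3FF and 4 for any difference. Both sets have fewer controls. Without the 3 libraries high in immune markers 3 members were called in Gli2FFGli3FF, and with the trend over exon length removed 1 was called for SmoM2 against SmoFF; these settings, and the pseudogene counts added to Pcna and Tyms, were chosen after seeing the data. Leaving out 1 library in turn gave 1 to 25 calls after BDL, 0 to 0 in SmoFF and SmoM2 and for SmoM2 against SmoFF, 2 to 5 in Ctnnb1FF, 1 to 2 in Gli2FF, 0 to 1 in Gli3FF, 1 to 8 in Gli2FFGli3FF, 1 to 10 for Gli2FFGli3FF against SmoFF and 3 to 15 for any difference. The difference in mean log2 CPM of replication genes between Gli2FFGli3FF and SmoFF was -0.05, and -0.86 with total counts in place of TMM. The same difference from wild type, none of them called, changed sign in SmoFF (-0.02, 0.03 with a prior count of 5 and 0.10 with total counts), SmoM2 (-0.18, 0.02 with total counts) and Gli2FFGli3FF (-0.07, 0.02 with a prior count of 5). Apart from what the settings change by construction, the cause was not tested. Replicate numbers did not pair the libraries: correlations of same-numbered deviations lay between -0.259 and 0.166, and in no comparison with 3 or more pairs were all above 0.1. With a replicate block the calls were 1 after BDL, 0 in SmoFF, 0 in SmoM2, 3 in Ctnnb1FF, 2 in Gli2FF, 1 in Gli3FF, 1 in Gli2FFGli3FF, 0 for SmoM2 against SmoFF, 2 for Gli2FFGli3FF against SmoFF and 4 for any difference. Up to 25 of 30 mitosis genes had no count in uninjured ducts and up to 17 of 30 in the Pdgfra libraries, against 0 of 30 in each BDL library. Uninjured replicate 3, with 25 at 0, had 20165746 total counts, and BDL replicate 1 had 19486020. Genes detected numbered 20753, 18999 and 17121 in uninjured replicates 1, 2 and 3, and 24964, 24619 and 23482 in BDL replicates 1, 2 and 3. The part of depth, or of the lower number of genes detected, in these zeros was not tested.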
